A study of Mus musculus with 6 samples.

Results

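Inflammatory cytokine and IL-1 family transcripts were examined in libraries that the study describes as donor hematopoietic stem and progenitor cells (HSPCs), sorted soon after transplantation from irradiated mice. The 10 genes were Il1a, Il1b, Il1rn, Il1r1, Il1r2, Il18, Il6, Tnf, Acod1 and Il10. The list was made by name, with no threshold on their values but with earlier results of these data known. All 10 were found by Ensembl identifier among the 24965 genes listed in the deposited table, and all 10 were among the 13739 genes tested. The WT group held 3 libraries from recipients of WT bone marrow, and the Hemgn-/- group held 3 libraries from recipients of bone marrow that lacked hemogen (Hemgn), a nuclear protein of hematopoietic cells.

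The Hemgn-/- donors were whole-body knockouts made with zinc finger nucleases on a C57BL/6 (CD45.2+) background, and the study's methods used young adult male and female mice with WT littermates as controls. In both groups, 20000000 bone marrow cells were given to CD45.1+ recipients that had received 9 Gy of irradiation as a split dose, and CD45.2+ donor cells were sorted 6 h later. All 6 libraries therefore come from transplanted cells in irradiated hosts, and no library of cells that were not transplanted was analysed here. The labels give the sorted cells as Lin-Sca-1+, whereas the study's methods add c-Kit, and the sources differ as well on the injection route and the library kit. How many recipients went into each library was not given in the sources used here.

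IL-1α (Il1a) and IL-1β (Il1b) bind the signalling receptor IL1R1, while IL1R2 is a decoy receptor that binds IL-1 without signalling and IL1RN is the secreted receptor antagonist. IL-1β and IL-18 are made as precursors that caspase-1 cleaves in the inflammasome, and TNF, IL-6 and IL-10 act through receptors of their own, IL-10 as a brake on the others. Acod1 encodes the mitochondrial enzyme that makes itaconate and is induced together with Il1b and Tnf in stimulated myeloid cells. In bone marrow, these cytokines are made largely by neutrophils, monocytes and macrophages, and IL-1 and TNF act on HSPCs.

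Values are FPKM, which count sequenced fragments relative to transcript length and to the depth of the library, at depths of 23668015 to 28897360 fragments per library. Hemgn itself reached 5.64, 2.96 and 4.68 FPKM in WT replicates and 0.755, 0.913 and 1.60 FPKM in Hemgn-/- replicates, which did not overlap. The markers of the sorted cells were low. The 12 HSPC genes summed to 37.4 to 43.8 FPKM in WT and 45.9 to 54.6 FPKM in Hemgn-/- libraries, and 1 of the 11 tested, Cd34, was called higher, under 4 of 15 alternatives. Ly6a, which encodes Sca-1, averaged 9.38 ± 1.011 FPKM in WT and 14.7 ± 3.01 FPKM in Hemgn-/- libraries (SD, n = 3), and Kit, named here because the study's methods, unlike the labels, include c-Kit in the sort, averaged 6.58 ± 0.581 and 5.68 ± 0.206 FPKM. The 14 neutrophil genes, led by Ngp and S100a9, summed to 77374 to 83289 FPKM in WT and to 51664.5 to 57228.5 FPKM in Hemgn-/- libraries. Ngp alone averaged 44876 ± 1761 and 27132 ± 754 FPKM, so the difference of these sums rests largely on Ngp. The 15 monocyte and macrophage genes, led by Lyz2 and Ly6c2, summed to 23228 to 25926 FPKM and to 16807 to 20928 FPKM, nearly all of it Lyz2. Without Lyz2 these sums were 678, 693 and 674 FPKM in WT and 628, 723 and 672 FPKM in Hemgn-/- libraries, which overlapped. No gene of these lists was at 0 in any library. Transcripts of mature or maturing myeloid cells thus far exceeded those of the HSPC list, although the labels describe a sort of lineage-negative cells, and each value below is that of the whole library. In such bulk samples, a change in the number of cells that express a gene and a change in RNA per cell cannot be told apart.

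In the WT libraries, Il1b and Il1r2 were the most abundant of the 10 transcripts on the FPKM scale. Their levels of 167 to 197 FPKM and 168 to 193 FPKM overlapped. Il1rn, Tnf and Acod1 followed in that order without overlap, and Il6 lay below them at 8.37 to 12.5 FPKM. Il18, Il10, Il1a and Il1r1 lay at or below 4.26 FPKM, and each of these overlapped with its neighbour in the order. In the Hemgn-/- libraries, Il1b at 249 to 324 FPKM stood clear of Il1r2 at 145 to 157 FPKM. Acod1 and Tnf, apart in WT, overlapped, with 70.4 to 80.8 FPKM against 63.1 to 73.8 FPKM, and the order of the others was as in WT. The decoy receptor was far above the signalling receptor in both groups: the Il1r2 level was 115 to 294 times that of Il1r1 in WT and 164 to 290 times in Hemgn-/- libraries.

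**Figure D1:**
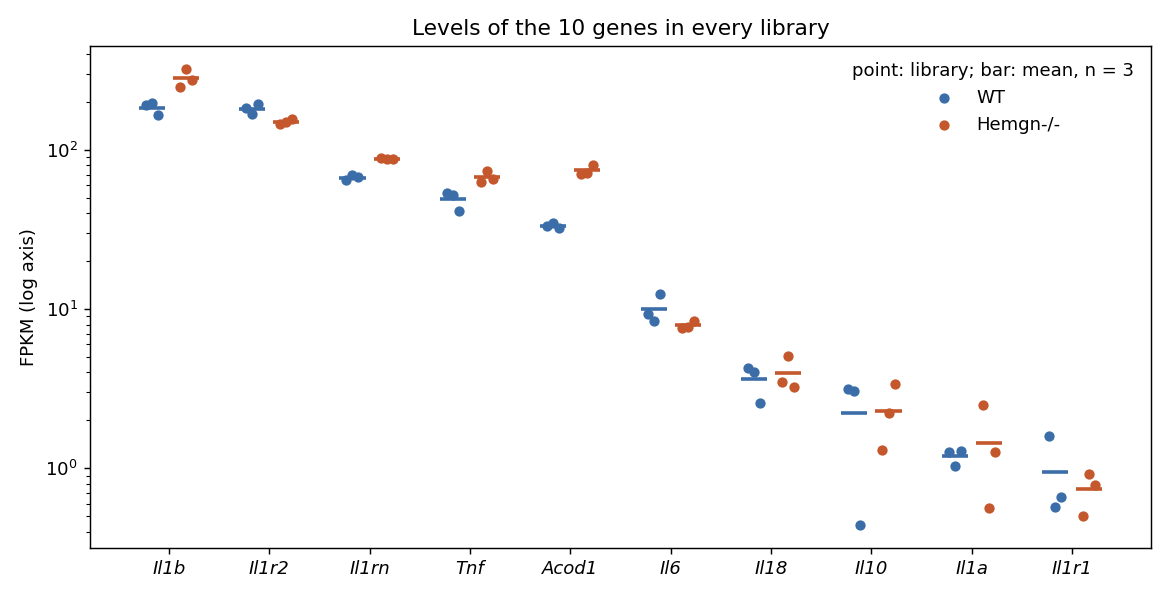
FPKM of the 10 genes (log axis) in the 3 WT and 3 Hemgn-/- libraries, with a bar at each group's mean. The groups lie apart for Il1b, Il1r2, Il1rn, Tnf and Acod1 and overlap for the other 5 genes, of which Il18, Il10, Il1a and Il1r1 scatter most.

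Acod1, Il1b, Tnf and Il1rn rose in the Hemgn-/- libraries, and 0 of the 10 genes were called lower. With limma on log2(FPKM + 1) and Benjamini-Hochberg adjustment over all genes tested, 4 of the 10 members were higher at an adjusted p under 0.05, against a background of 4.37% of all genes tested called higher and 2.09% called lower. At an unadjusted p under 0.05, the same test had 4 members higher and 1 (Il1r2) lower, against 15% and 6.46% of all genes tested. Voom on recovered fragments had 4 higher and 0 lower with adjustment, against 5.35% and 2.41%. The study's thresholds were p under 0.05 and 1.5-fold, the fold being taken here on log2(FPKM + 1). At these, 2 members (Acod1 and Il1b) were higher, against 4.1% of all genes. The libraries of the groups did not overlap for 5 members, 4 with Hemgn-/- above WT (19.2% of all genes) and 1, Il1r2, with Hemgn-/- below WT (8.18% of all genes). The median log2 difference was 0.12 over the members and 0.087 over all genes tested. Of all calls, 67.6% were higher on the deposited scale, but 46.9% after median-ratio scaling, 51.3% after quantile normalization and 81.7% after rescaling to the same total, which moved the median of all genes to between 0.0068 and 0.16. The sign of each of the 10 members was the same under all 3 scalings. Of the marker sums given above, that of the neutrophil genes, largely Ngp, was lower in every Hemgn-/- library than in any WT library. So was that of the monocyte and macrophage genes with Lyz2 but not without it. The part of these cells in the differences of the members was not tested.

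**Figure D2:**
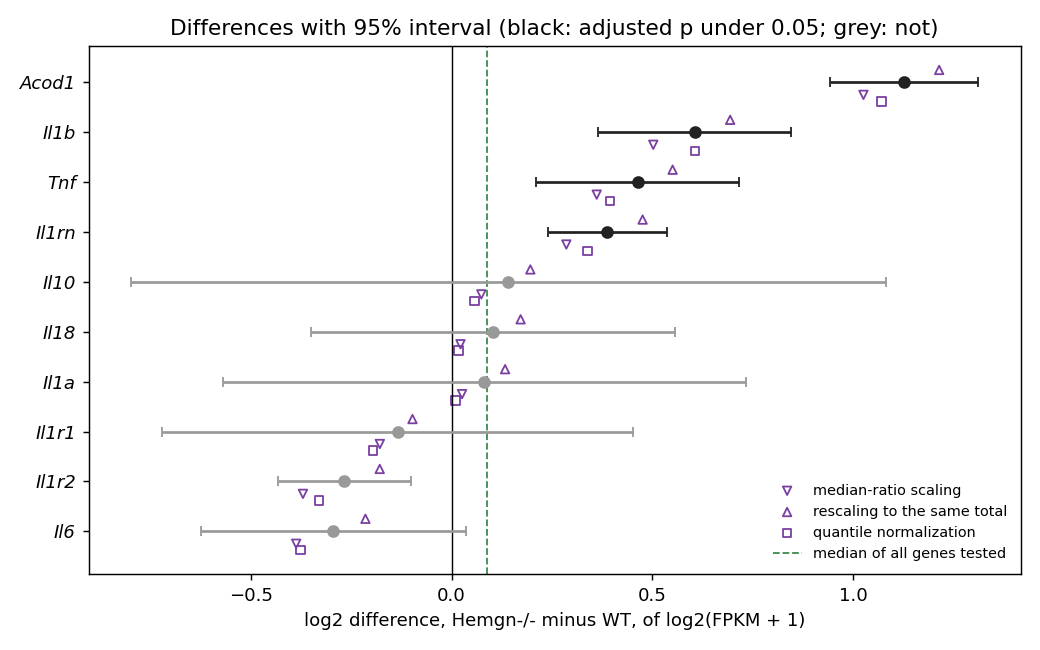
Log2 difference of each gene (Hemgn-/- minus WT) with its 95% interval, black where the adjusted p was under 0.05, beside the values after 3 other scalings (open symbols) and the median of all genes tested (dashed line). Acod1, Il1b, Tnf and Il1rn lie to the right of 0 with their whole interval, Il1r2 lies to the left, and the intervals of the other 5 genes include 0.

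Sequences around the starts of these transcripts, nearly all of them upstream, are shown for the 4 genes that rose and for Il6, a cytokine of the same inflammatory programme that was not called. RefSeq promoter entries (build GRCm38.p6) were found for 9 of the 10 members. The 250 bases before each listed start were searched on both strands, and for the genes shown the first listed start is printed. The search was for the letters of a TATA box, TATAAA, of AP-1 sites, TGANTCA, of C/EBP sites, TTGCNNAA, and of STAT (GAS) sites, TTCNNNGAA, and for kappaB and ISRE motifs. Capitals mark the matches. The RefSeq window of Acod1 runs 35 bases and that of Il1rn 7 bases into the span that GENCODE M21 gives the gene, since the annotated starts differ, so Acod1 is printed only to the end of its match, 13 bases into that span, and Il1rn only up to it. The printed stretches lie at chr2:129371140-129371389 (minus strand) for Il1b, chr17:35202008-35202257 (minus strand) for Tnf, chr14:103046762-103046989 (plus strand) for Acod1, chr2:24336610-24336852 (plus strand) for Il1rn and chr5:30012864-30013113 (plus strand) for Il6.
Il1b: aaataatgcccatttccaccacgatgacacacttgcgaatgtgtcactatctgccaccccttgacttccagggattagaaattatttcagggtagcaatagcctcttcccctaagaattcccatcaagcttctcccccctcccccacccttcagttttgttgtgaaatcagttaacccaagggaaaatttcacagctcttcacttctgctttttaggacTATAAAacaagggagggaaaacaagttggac
Tnf: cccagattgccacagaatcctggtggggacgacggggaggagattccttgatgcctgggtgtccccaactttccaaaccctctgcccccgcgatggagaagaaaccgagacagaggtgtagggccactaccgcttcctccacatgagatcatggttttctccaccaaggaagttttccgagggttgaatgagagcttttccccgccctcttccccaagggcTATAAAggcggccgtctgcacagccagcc
Acod1: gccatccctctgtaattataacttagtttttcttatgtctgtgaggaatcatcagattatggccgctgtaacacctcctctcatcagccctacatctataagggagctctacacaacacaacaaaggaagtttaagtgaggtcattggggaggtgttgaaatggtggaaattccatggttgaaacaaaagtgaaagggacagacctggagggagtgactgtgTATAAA
Il1rn: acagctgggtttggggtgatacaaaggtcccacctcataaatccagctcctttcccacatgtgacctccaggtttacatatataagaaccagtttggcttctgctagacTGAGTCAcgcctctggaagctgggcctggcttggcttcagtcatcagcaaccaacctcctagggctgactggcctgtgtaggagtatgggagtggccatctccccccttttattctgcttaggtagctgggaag
Il6: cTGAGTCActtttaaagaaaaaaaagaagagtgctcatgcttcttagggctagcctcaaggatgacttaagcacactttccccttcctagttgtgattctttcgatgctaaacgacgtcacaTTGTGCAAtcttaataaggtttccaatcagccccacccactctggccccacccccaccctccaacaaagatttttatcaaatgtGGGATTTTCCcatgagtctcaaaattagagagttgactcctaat

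Il1b, Tnf and Acod1 each held TATAAA on the plus strand of the gene, beginning 31, 29 and 28 bases before the RefSeq start, and so did Il1a, at 32 bases, which was not called. Of 32851 RefSeq windows of the same length, 1.84% held TATAAA on the plus strand at 20 to 35 bases before the start, and 12.4% held it anywhere on either strand. Il1rn has several annotated starts, and the window of the first held the AP-1 letters TGAGTCA 141 bases before it, without TATAAA. The windows of its other starts held none of the motifs searched. Values per gene do not show which start was used. Il6 held an AP-1 match, a C/EBP match and the kappaB match GGGATTTTCC, which begins 44 bases before the start. Among all windows, AP-1 was found in 6.75%, C/EBP in 9.56%, kappaB in 7.25%, GAS in 7.02% and ISRE in 2.98%. No kappaB match was found in the windows of Il1b, Tnf and Acod1, which says only that these letters do not stand in these 250 bases.

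Acod1 (ENSMUSG00000022126, chr14:103046977-103056573, plus strand, GRCm38) gave the largest difference of the 10 genes. The WT libraries held 33.5, 34.7 and 32.2 FPKM, and the Hemgn-/- libraries 70.4, 71.9 and 80.8 FPKM. Each Hemgn-/- library was above all WT libraries, and the spread within either group was small against the gap. The group means of 33.4 ± 1.24 and 74.3 ± 5.62 FPKM (SD, n = 3) stood 2.22-fold apart. The log2 difference was 1.13 (SE 0.081, 95% interval 0.94 to 1.31, adjusted p = 0.000144 by limma), and Acod1 was called under all 15 alternatives to the processing.

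Il1b (ENSMUSG00000027398, chr2:129364570-129371139, minus strand), which encodes the IL-1 that activated myeloid cells secrete, was at 190, 197 and 167 FPKM in WT and at 249, 324 and 274 FPKM in Hemgn-/- libraries. The lowest Hemgn-/- library lay above the highest WT library. The means were 185 ± 16.1 and 282 ± 38.1 FPKM, a 1.53-fold difference, with a log2 difference of 0.61 (SE 0.11, 95% interval 0.36 to 0.85, adjusted p = 0.0125 by limma). The call was lost when all genes with FPKM above 0 were kept (adjusted p = 0.0626), without the mean-variance trend (0.0736) and without Hemgn-/- replicate 3 (0.0529). Il1bos, an antisense gene that shares 25 exon bases with Il1b, did not exceed 3.99 FPKM in any library.

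Il1rn (ENSMUSG00000026981, chr2:24336853-24351494, plus strand), the antagonist of the same receptor, was at 64.5, 69.2 and 67.4 FPKM in WT and at 88.6, 87.5 and 87.9 FPKM in Hemgn-/- libraries. The 3 Hemgn-/- libraries lay close together, all above WT. The means of 67.0 ± 2.40 and 88.0 ± 0.546 FPKM differed 1.31-fold (log2 difference 0.39, SE 0.065, 95% interval 0.24 to 0.54, adjusted p = 0.0107 by limma). The call was lost without WT replicate 1 (adjusted p = 0.0533), without Hemgn-/- replicate 3 (0.0594) and without the trend (0.0822). Both ligand and antagonist rose, and the Il1b level divided by the Il1rn level within a library was 2.47 to 2.95 in WT and 2.81 to 3.70 in Hemgn-/- libraries, which overlapped.

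Tnf (ENSMUSG00000024401, chr17:35199381-35202007, minus strand) was at 53.6, 51.8 and 41.4 FPKM in WT and at 63.1, 73.8 and 65.8 FPKM in Hemgn-/- libraries. WT replicate 3 was the lowest, and the groups did not overlap. The means of 48.9 ± 6.61 and 67.6 ± 5.55 FPKM differed 1.38-fold (log2 difference 0.46, SE 0.11, 95% interval 0.21 to 0.72, adjusted p = 0.0451 by limma). This call was close to the threshold: it held under 4 of the 15 alternatives, and leaving out any 1 of the 6 libraries ended it, with adjusted p-values of 0.0602 to 0.134. It was also lost with a replicate block (0.0512), with median-ratio scaling (0.107) and with quantile normalization (0.0827).

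Il1r2 (ENSMUSG00000026073, chr1:40074079-40125231, plus strand), the decoy receptor, was the only member whose Hemgn-/- libraries all lay below WT. It was at 184, 168 and 193 FPKM in WT and at 145, 150 and 157 FPKM in Hemgn-/- libraries. The means were 182 ± 12.9 and 151 ± 6.03 FPKM, and the log2 difference of -0.27 (SE 0.073, 95% interval -0.43 to -0.10) did not pass the adjustment (adjusted p = 0.0696 by limma). It was called lower after median-ratio scaling (0.0211), after quantile normalization (0.0359) and without WT replicate 2 (0.0435). Gm37347, chosen after its values were seen, is annotated on the same strand within the span of Il1r2 (chr1:40088511-40091581) and shares 0 exon bases with it. It went the other way, from 44.8, 44.9 and 37.7 FPKM in WT to 63.7, 70.9 and 68.1 FPKM in Hemgn-/- libraries (log2 difference 0.66, SE 0.091, adjusted p = 0.00451 by limma, called under all 15 alternatives). Scaled to library depth as CPM, the recovered fragments of both genes summed to 488, 458 and 484 CPM in WT and to 472, 505 and 508 CPM in Hemgn-/- libraries, and these sums overlapped between the groups. Whether both features belong to a single transcript was not tested.

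The remaining members were low and overlapped between the groups. Il6 (ENSMUSG00000025746, chr5:30013114-30019981, plus strand) was at 9.34, 8.37 and 12.5 FPKM in WT and at 7.58, 7.76 and 8.47 FPKM in Hemgn-/- libraries (log2 difference -0.29, 95% interval -0.62 to 0.036, adjusted p = 0.287 by limma). Only the lowest WT library fell within the Hemgn-/- range. Il18 (ENSMUSG00000039217, chr9:50554827-50581840, plus strand), the other cytokine that caspase-1 activates, was at 4.26, 4.02 and 2.55 FPKM in WT and at 3.50, 5.08 and 3.26 FPKM in Hemgn-/- libraries. Its log2 difference was 0.10 (95% interval -0.35 to 0.56, adjusted p = 0.804 by limma), so that a change of the size seen for Il1rn lies inside the interval.

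Il10 (ENSMUSG00000016529, chr1:131019845-131024974, plus strand), the anti-inflammatory cytokine, was at 3.13, 3.07 and 0.441 FPKM in WT and at 1.31, 2.22 and 3.38 FPKM in Hemgn-/- libraries. WT replicate 3 stood apart at 16 fragments, against 97 and 103 in the other WT libraries, and Hemgn-/- libraries held 47, 76 and 128 fragments. The log2 difference of 0.14 had an interval of -0.80 to 1.08 (adjusted p = 0.878 by limma). Il1a (ENSMUSG00000027399, chr2:129299610-129309972, minus strand), the IL-1 that cells release on damage, was at 1.26, 1.03 and 1.28 FPKM in WT and at 2.51, 0.561 and 1.26 FPKM in Hemgn-/- libraries. Both the highest and the lowest of its 6 values were in Hemgn-/- libraries, at 136 and 29 fragments (log2 difference 0.081, 95% interval -0.57 to 0.73, adjusted p = 0.902 by limma). The antisense gene Gm14023 shares 222 exon bases with Il1a and had 0.546 to 1.74 FPKM, and the sources used here do not state whether counting used strand. Il1r1 (ENSMUSG00000026072, chr1:40225080-40317257, plus strand), the signalling receptor, was at 1.60, 0.571 and 0.663 FPKM in WT and at 0.498, 0.919 and 0.789 FPKM in Hemgn-/- libraries (log2 difference -0.13, 95% interval -0.72 to 0.45, adjusted p = 0.803 by limma). For these 3 genes the intervals span both a rise and a fall of 1.31-fold, so that a difference of the size of Il1rn lies inside each of them.

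Because a ratio of 2 genes within a library does not change with the scaling of that library, 9 ratios were compared by a two-sided exact permutation test, for which 3 libraries against 3 cannot give a p below 0.1. Il1b over Il1r2, ligand over decoy, was 1.04, 1.17 and 0.862 in WT and 1.72, 2.15 and 1.75 in Hemgn-/- libraries, without overlap. Il1rn over Il1r2 was 0.351, 0.413 and 0.349 in WT and 0.613, 0.582 and 0.561 in Hemgn-/- libraries, again without overlap. Acod1 over Il1b was 0.176, 0.176 and 0.193 in WT and 0.283, 0.222 and 0.294 in Hemgn-/- libraries, higher in each of them than in any WT library. These 3 ratios had the smallest p the exact permutation test can give (0.1, adjusted over the 9 ratios 0.225). For both ratios over Il1r2 this was fixed by the levels given above. Il1b and Il1rn lay above WT and Il1r2 below WT in every Hemgn-/- library, so these ratios add no separate support. The ratio of Il6 to Tnf was lower in all Hemgn-/- libraries, at 0.120, 0.105 and 0.129 against 0.174, 0.161 and 0.303, with the same p of 0.1 in the exact permutation test. Tnf over Il1b was 0.282, 0.263 and 0.249 in WT and 0.254, 0.228 and 0.240 in Hemgn-/- libraries, which overlapped (exact permutation p = 0.2, adjusted 0.3). The ratios of Il1b to Il1rn, to Il1a and to Il18, and of Il1r2 to Il1r1, overlapped as well (exact permutation p = 0.3, 0.6, 0.2 and 0.8).

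**Figure D3:**
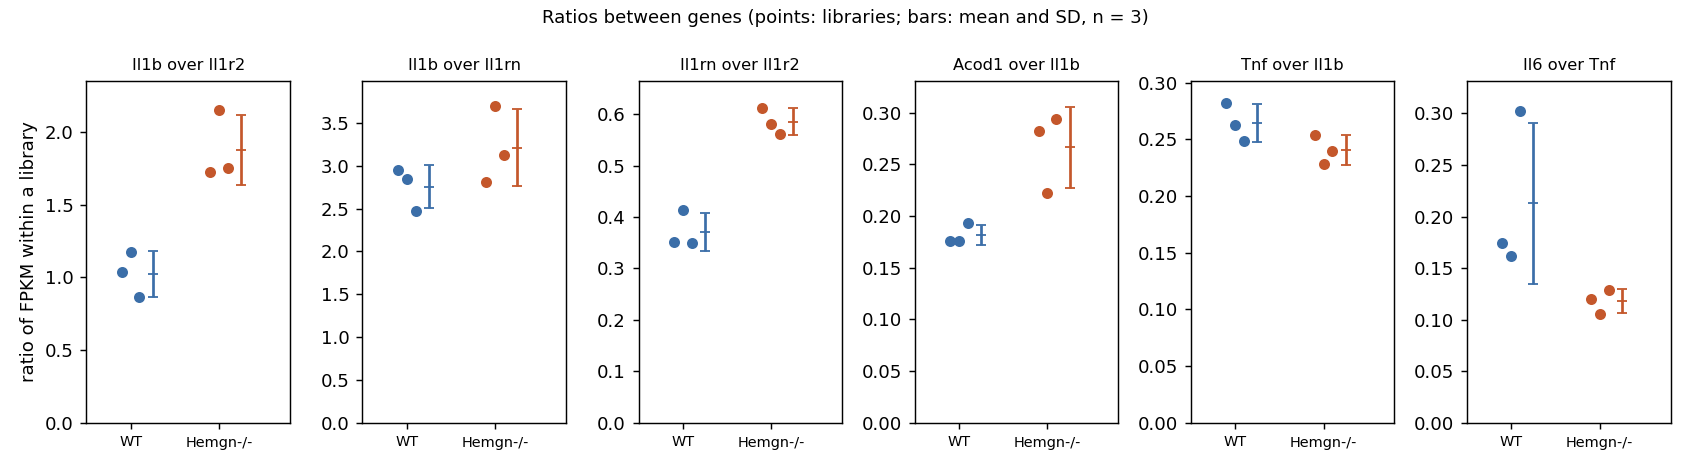
Ratio of FPKM values within each library for 6 pairs of genes, 3 WT and 3 Hemgn-/- libraries each, with mean and SD beside the points and each axis from 0. Il1b over Il1r2, Il1rn over Il1r2 and Acod1 over Il1b are higher and Il6 over Tnf is lower in all Hemgn-/- libraries, and the other pairs overlap.

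Genes around the members in their pathways were described by lists chosen for function. The counts below stand against the same shares of all genes: 4.37% higher and 2.09% lower by limma with adjustment, 15% and 6.46% at an unadjusted p under 0.05, and 5.35% and 2.41% with voom. Statements that the groups did not overlap stand against 19.2% of all genes with Hemgn-/- above WT and 8.18% with Hemgn-/- below. In the other ligands and receptors of the IL-1 family, 0 of 7 tested genes were called in either direction by limma, and all 7 differences were above 0, as were 63% of those over all genes (median log2 difference 0.17, against 0.087 over all genes). At an unadjusted p under 0.05, 1 of them was higher and 0 lower, and voom called 0. Il18rap, the accessory chain of the IL-18 receptor, was the most abundant of them, at 46.1 ± 1.47 FPKM in WT against 48.3 ± 1.63 FPKM in Hemgn-/- libraries. Il18r1, its partner chain, was at 4.67 ± 0.453 and 5.96 ± 1.48 FPKM, and Il18bp, which neutralises IL-18, at 9.55 ± 1.27 and 12.2 ± 1.21 FPKM (adjusted p = 0.178 by limma). Il1rap, the co-receptor that IL1R1 needs to signal, was at 3.01 ± 0.331 and 3.75 ± 0.349 FPKM, and Il1rl1, the IL-33 receptor, at 1.95 ± 0.490 and 2.30 ± 0.342 FPKM. Il36a, Il36b, Il36g, Il36rn and Il1f10 were not analysed here.

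Downstream of the receptors, 1 of 14 adaptors and kinases was called higher and 0 lower (2 and 1 at an unadjusted p under 0.05 by limma, 1 and 1 with voom), with a median log2 difference of 0.11. Myd88, the adaptor shared by IL-1 and Toll-like receptors, was also the most abundant of them, at 81.2, 76.9 and 72.2 FPKM in WT and 94.9, 108 and 104 FPKM in Hemgn-/- libraries. Its libraries did not overlap (log2 difference 0.41, SE 0.079, adjusted p = 0.0191 by limma). The call was lost under 6 of 15 alternatives, among them median-ratio scaling (0.0574) and leaving out WT replicate 3 (0.0672), Hemgn-/- replicate 2 (0.0667) or Hemgn-/- replicate 3 (0.0881).

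Of 9 tested inflammasome and processing genes, 1 was called higher and 0 lower (7 and 0 at an unadjusted p under 0.05 by limma, 3 and 0 with voom), with a median log2 difference of 0.35. Casp4, the caspase that senses intracellular lipopolysaccharide, was at 12.3, 13.8 and 15.998 FPKM in WT and at 20.5, 20.8 and 22.8 FPKM in Hemgn-/- libraries. All Hemgn-/- libraries were above WT (log2 difference 0.58, SE 0.11, adjusted p = 0.0190 by limma), and the call was lost under 5 of 15 alternatives, including without WT replicate 1 (0.0625), Hemgn-/- replicate 2 (0.0560) or Hemgn-/- replicate 3 (0.0879). Casp1, which cleaves the IL-1β and IL-18 precursors, was at 31.9 ± 2.70 and 37.8 ± 2.13 FPKM (adjusted p = 0.174 by limma). The most abundant gene of the list was Gsdmd, the pore-forming target of these caspases, at 166 ± 12.7 and 196 ± 3.31 FPKM (adjusted p = 0.0911 by limma).

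None of the 6 receptor genes for TNF, IL-6 and IL-10 passed the limma test with adjustment (0 called higher, 0 lower). All 6 differences were above 0 (63% over all genes) with a median of 0.26, 3 were higher at an unadjusted p under 0.05, and voom called 2 higher and 0 lower. Il10rb came nearest, at 20.8 ± 2.51 FPKM in WT against 28.3 ± 1.94 FPKM in Hemgn-/- libraries (adjusted p = 0.0502 by limma), followed by Il10ra at 13.4 ± 3.11 and 20.01 ± 0.779 FPKM (adjusted p = 0.0725). Both chains of the IL-10 receptor had every Hemgn-/- library above WT, as did 19.2% of all genes tested, while Il10 itself overlapped. Tnfrsf1a was at 38.5 ± 3.74 and 43.9 ± 3.68 FPKM and Tnfrsf1b at 19.4 ± 2.88 and 24.5 ± 2.60 FPKM. Il6ra was at 11.01 ± 1.70 and 12.0 ± 1.04 FPKM, and Il6st, the signal-transducing chain, at 3.17 ± 0.652 and 3.52 ± 0.410 FPKM.

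Among 12 tested genes for other cytokines, 2 were called higher and 0 lower (5 and 1 at an unadjusted p under 0.05 by limma, 3 and 0 with voom), with a median log2 difference of 0.30. Osm, which encodes oncostatin M, a cytokine of the IL-6 family, was more abundant than any member, at 536, 571 and 496 FPKM in WT and at 726, 712 and 704 FPKM in Hemgn-/- libraries (log2 difference 0.42, SE 0.064, adjusted p = 0.00730 by limma). Ltb, the lymphotoxin beta chain of the TNF family, was at 112, 101 and 112 FPKM in WT and at 166, 182 and 158 FPKM in Hemgn-/- libraries (log2 difference 0.63, SE 0.077, adjusted p = 0.00257 by limma). Both were without overlap between the groups. Ltb was called under all 15 alternatives, whereas Osm was lost when genes with FPKM above 0 were kept (0.0515) and without the trend (0.0848). Il3, Il17a and Ifnb1 were not analysed here.

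Of 9 genes that act on the decay of cytokine mRNA, 1 was called higher and 0 lower (3 and 0 at an unadjusted p under 0.05 by limma, 1 and 0 with voom; median log2 difference 0.17). Zfp36, which encodes tristetraprolin, a protein that binds AU-rich elements of Tnf and other cytokine mRNAs and brings them to decay, was at 601, 512 and 552 FPKM in WT and at 845, 804 and 866 FPKM in Hemgn-/- libraries. It rose by a log2 difference of 0.60 (SE 0.070, adjusted p = 0.00236 by limma) and was called under all 15 alternatives. Of 8 tested enzymes of activated myeloid cells and targets of itaconate, 1 was called higher and 0 lower (6 and 0 unadjusted, 2 and 0 with voom), with a median log2 difference of 0.23. This gene was Ptgs2, the inducible cyclooxygenase, at 58.1, 55.6 and 59.97 FPKM in WT and 78.7, 77.7 and 79.6 FPKM in Hemgn-/- libraries (log2 difference 0.44, SE 0.067, adjusted p = 0.00726 by limma). Sdha, the succinate dehydrogenase subunit of the complex that itaconate inhibits, was the most abundant of this list, at 76.7 ± 2.40 and 87.7 ± 7.01 FPKM (adjusted p = 0.212 by limma).

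**Figure D4:**
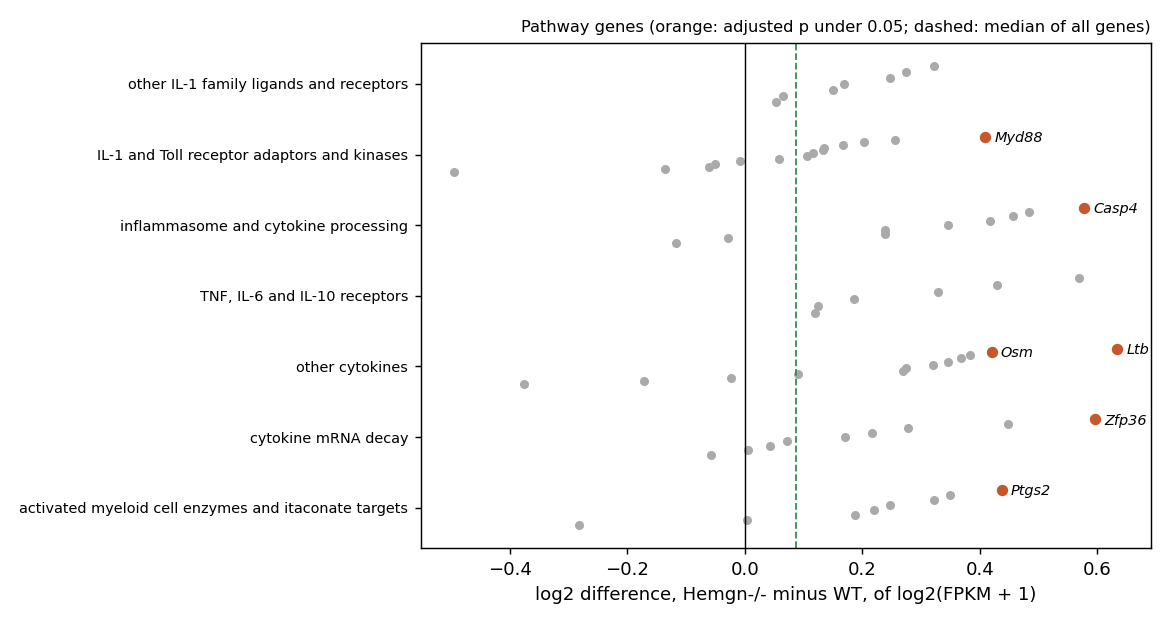
Log2 difference (Hemgn-/- minus WT) of every tested gene in 7 pathway lists, with called genes in orange and named, and the median of all genes as a dashed line. Uncalled genes (grey) lie on both sides of 0, and the 6 called genes (Myd88, Casp4, Osm, Ltb, Zfp36 and Ptgs2) all lie to the right of 0.

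Markers of myeloid cells also differed between the groups, in both directions. Of 14 neutrophil genes tested, 2 were called higher and 5 lower. The 2 that rose, Cxcr2 and Csf3r (chosen after their values were seen), encode receptors and went from 278 ± 2.31 to 415 ± 7.19 FPKM and from 181 ± 11.8 to 235 ± 7.23 FPKM. Ngp, a granule protein of maturing neutrophils, fell from 44876 ± 1761 to 27132 ± 754 FPKM, and the other 4 that fell (Ltf, Camp, Elane and Mpo, likewise chosen) encode granule proteins as well. The rest of the list was not called. Retnlg, Mmp9 and Mmp8 had log2 differences of 0.10, 0.076 and 0.0065. Those of Ly6g, S100a8, S100a9 and Prtn3 were -0.36, -0.33, -0.19 and -0.37. Of 14 monocyte and macrophage genes tested, 5 were called higher and 3 lower. The 5 that rose (Ccr2, F13a1, Csf1r, Adgre1 and Ms4a6c, chosen after their values were seen) were led by Ccr2, a chemokine receptor, from 15.7 ± 0.599 to 32.7 ± 3.92 FPKM, and F13a1, from 12.0 ± 0.473 to 23.6 ± 2.51 FPKM, both called under all 15 alternatives. Ly6c2, next to Lyz2 the most abundant of the list, was not called. It was at 297 ± 28.9 FPKM in WT against 251 ± 40.8 FPKM in Hemgn-/- libraries, which overlapped (log2 difference -0.25). The 3 that fell were Lyz2 (24118 ± 1402 FPKM in WT against 18724 ± 2250 FPKM in Hemgn-/- libraries, called under 2 of 15 alternatives), C1qb and Vcam1, the last 2 chosen after their values were seen. Dendritic cell genes (2 of 8 tested higher, 0 lower), B cell genes (3 of 8 higher, 0 lower) and T and NK cell genes (3 of 10 higher, 0 lower) summed higher in every Hemgn-/- library. Their sums were 115 to 126, 1165 to 1226 and 210 to 231 FPKM in WT and 156 to 187, 1384 to 1558 and 245 to 273 FPKM in Hemgn-/- libraries. Log2 differences were above 0 for 6 of 8, 6 of 8 and 8 of 10 of the tested genes, against 63% of all genes. Bst2 and Irf8 led the dendritic cell list (0.21, not called, and 0.75, called). Cd79b and Cd79a led the B cell list (0.27, called, and 0.22, not called). Trac and Nkg7 led the T and NK cell list, and neither was called (0.10 and -0.043). Eosinophil and basophil genes summed to 740 to 849 FPKM in WT and 581 to 609 FPKM in Hemgn-/- libraries (0 of 11 higher, 3 lower). The 3 were the eosinophil genes Epx, Prg2 and Prg3 (Epx and Prg3 chosen after their values were seen), with Prg2 at 262 ± 28.6 FPKM in WT against 65.0 ± 7.31 FPKM. The other eosinophil genes of the list, Siglecf, Ccr3, Ear1 and Ear2, were not called and went in both directions (log2 differences 0.21, 0.34, -0.12 and -0.51). The basophil gene Prss34 was at 295 ± 17.5 and 307 ± 13.5 FPKM. Mcpt8, Cpa3 and Fcer1a were not called either (log2 differences -0.10, 0.27 and 0.33). Erythroid genes summed to 454 to 542 FPKM in WT and 27.8 to 43.0 FPKM in Hemgn-/- libraries (0 of 7 higher, 4 lower), and endothelial genes to 16.6 to 17.6 and 18.0 to 21.5 FPKM (0 of 5 in either direction by limma, 1 each way at an unadjusted p under 0.05, and 0 higher and 1 lower with voom). What part these other cells had in the differences of the cytokine genes was not tested.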

How the data were processed

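Per gene and library, the authors deposited FPKM values. The submitters' processing notes list Bowtie2 2.2.3, HISAT2 2.1.0, TopHat2, HTSeq 0.6.0 and GRCm38, with no order or role; strand settings and the annotation are not given in the sources used here. Of 24965 genes, 24921 matched GENCODE M21 by Ensembl identifier and 44 did not; 8 symbols stood for more than 1 gene. Columns left unmapped numbered 0. Steps between the lowest values gave the depth: of 13472 genes with at most 100 fragments, 95.69% were whole (within 0.05 fragments) in all 6 libraries. PCR copies are not independent molecules.

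The 13739 genes that exceeded 1 FPKM in some library were compared on log2(FPKM + 1) by limma 3.58.1 in R 4.3.3 (eBayes with a trend, 3 against 3 libraries, no covariate; two-sided, Benjamini-Hochberg over all genes tested); this scale understates the change of low genes. Calls are adjusted p under 0.05. The sources call the replicates biological without saying how many animals each holds, so p-values measure the spread between these libraries. Alternatives were a pseudocount of 0.1, 2 other filters, 3 scalings (median-ratio, same FPKM total, quantile), no trend, voom on recovered fragments, the replicate number as a block and leaving out each library. Python 3.11.15, numpy 2.4.6, pandas 2.3.3 and matplotlib 3.10.9 did the rest.

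The 10 members and the gene lists were chosen with earlier results of these data known. Beside the members and Hemgn, the text names, in each pathway list, the called genes and the most abundant one, a fixed set of receptors, adaptors and regulators, and at most the 2 most abundant genes of a marker list; other genes are said to be chosen after their values were seen. RefSeq promoter windows came from the table of GRCm38.p6.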

Additional observations from a re-analysis of the deposited data

How the results depend on the processing

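Acod1 was called higher under all 15 alternatives, Il1b and Il1rn under 12 each and Tnf under 4. The number of members called was 4 on the deposited scale, 2 when all genes with FPKM above 0 were kept, 1 without the mean-variance trend and 1 to 4 with a library left out in turn (1 without Hemgn-/- replicate 3 and 2 without WT replicate 1). After median-ratio scaling, after quantile normalization and without WT replicate 2 it was again 4, but with Il1r2 called lower in place of Tnf. At the study's thresholds it was 2, and 1 after median-ratio scaling (Il1b was lost) and 1 to 2 with a library left out, 1 of them without WT replicate 3 or without Hemgn-/- replicate 2. Over all genes, 887 were called, against 466 with the filter at FPKM above 0, 390 without the trend and 373 to 688 with a library left out, with 470 (WT replicate 1 left out), 494 (WT replicate 3), 525 (Hemgn-/- replicate 2) and 373 (Hemgn-/- replicate 3). At the study's thresholds, 939 genes passed, 563 of them higher, and 1412 passed with voom on recovered fragments. The study itself, with a test it does not name, reported more genes lower than higher at its thresholds. The signs of Il1a, Il18 and Il10, none of them called, turned with a library left out: their log2 differences ranged from -0.22 to 0.37, from -0.074 to 0.21 and from -0.36 to 0.40. The cause of these shifts was not tested.

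With the replicate block, 636 genes and 3 of the 10 members were called, Tnf being lost. Same-numbered libraries did not deviate together (correlations of -0.043, -0.0094 and 0.011). These correlations show no shared deviation but cannot tell whether the libraries were paired in the experiment. Il1a, Il10, Il18 and Il1r1 rest on 16 to 241 fragments per library, and the other members on at least 493.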
